A study of Bos taurus with 6 samples.

Results

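The tensins are 4 genes, TNS1, TNS2, TNS3 and TNS4, out of 20958 in a table of RNA sequencing counts from BEND, a cultured bovine cell line labelled as endometrial epithelium. They were selected by gene symbol, and the family was singled out with the difference of TNS4 between the groups already in view. Their values in mimic against control are therefore described without a test. All 4 passed the filter on low counts, as did 12217 genes in all, and TNS4 passed it through the mimic group alone. The study compared 3 libraries of cells transfected with a bta-miR-200b mimic, a synthetic duplex that supplies the mature microRNA, with 3 libraries of cells given a negative-control mimic, called NC here. Per the labels, all 6 cultures were BEND cells in DMEM with fetal bovine serum, transfected at high density, and all carry the treatment label cell apoptosis, with no dose and no time. The labels do not say whether replicates were separate cultures, so the p-values reflect the spread of these libraries, possibly a technical one.

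Tensins are cytoplasmic proteins that link integrins, the receptors for extracellular matrix, to the actin cytoskeleton at focal and fibrillar adhesions. TNS1, TNS2 and TNS3 have an amino-terminal region through which they reach actin, and end in an SH2 domain and a phosphotyrosine-binding (PTB) domain that docks on the tails of integrin beta chains. TNS4, also called cten, keeps the SH2 and PTB domains and lacks the amino-terminal region. In human mammary epithelial cells, epidermal growth factor is known to lower TNS3 and raise TNS4, an exchange linked to cell migration.

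Library totals ranged from 19212694 to 21129547 gene counts. Values are CPM, counts divided by library sizes that edgeR's TMM method had scaled. No pair of libraries was alike within sampling noise, since chi-square values over degrees of freedom were 4.98 to 11.5 within groups and 8.28 to 21.3 across groups. Of the epithelial markers listed for the labelled cell type, KRT8 stood at 4494 ± 152 CPM and KRT19 at 3917 ± 201 CPM in NC (mean ± SD, n = 3), while CLDN4 and GRHL2 had no read in any library. The summed level of the epithelial list was 10454 to 11877 CPM in the mimic libraries and 8604 to 9321 in NC. In that sum KRT8 and KRT19 weighed most. The part of the list in the differences of the tensins was not tested. Of its 9 tested members, 6 rose and none fell, which is 66.7% called. Over all 12217 tested genes 6.45% were called, 4.3% higher and 2.15% lower, at an adjusted p of 0.05 in the quasi-likelihood test of edgeR adjusted by Benjamini and Hochberg. EPCAM, with 155 reads against 3, and KRT7, with 135 against 13, are among the 6 and passed the filter on low counts through the mimic group alone. Of 10 stromal markers 3 fell, or 30% against the 2.15% of all genes that were lower, and the called members were 1 without mimic replicate 2 or NC replicate 3 and 5 without mimic replicate 3. Their summed level of 23635 to 26350 CPM overlapped the 25302 to 26693 of NC. In that sum COL1A2 and COL1A1 weighed most, at 11640 ± 402 and 6622 ± 292 CPM in NC, and neither passed. Of the 10 stromal markers 2 had a log2 fold change above 0, and the list median was −0.19. The 6 smooth muscle markers summed to 1911 to 2294 CPM against 1980 to 2309, and none of the 5 tested passed. Endothelial markers summed to 6.1 to 6.2 CPM against 6.85 to 8.17, with 1 of 3 tested genes higher and 1 lower and CLDN5 at 0. Leukocyte markers summed to 3.05 to 3.08 CPM against 4.01 to 4.63, with 1 of 2 tested genes lower, and PTPRC, CD3E, ITGAM and LYZ had no read. No call was left in either of these lists without mimic replicate 2, NC replicate 1 or NC replicate 3, nor among leukocyte markers without mimic replicate 1. Libraries of mRNA do not hold the mature microRNA, whose level was not analysed here. ZEB1, a repressor of epithelial genes and a well-known miR-200b target, stood at 25.8, 30.3 and 31.8 CPM in mimic replicates 1 to 3 and at 40.5, 37.9 and 42.1 CPM in NC replicates 1 to 3.

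TNS4 was nearly absent from the control cells and present in every mimic library. Its levels were 30.3, 32.8 and 21.7 CPM in mimic replicates 1 to 3 and 0.542, 0.892 and 0.26 CPM in NC replicates 1 to 3. The groups lay far apart, with the lowest mimic library more than an order of magnitude above the highest NC library. In reads this was 629, 673 and 441 against 11, 18 and 5. The means were 28.3 ± 5.85 and 0.565 ± 0.317 CPM, a log2 fold change of 5.62 ± 0.24 (SE). The summed reads, 1743 against 34, gave a ratio of 49.7 after scaling to depth, and its exact 95% interval ran from 35.4 to 72. That interval covers counting error only. In these bulk samples, a change in the number of cells that express a gene and a change in its RNA per cell cannot be told apart.

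The mimic libraries were not alike in TNS4. Replicate 3 was the lowest, and its exact 95% counting interval of 19.7 to 23.8 CPM did not reach the interval of replicate 1, 28 to 32.8 CPM. Among the NC libraries, replicate 2 had the most TNS4 and replicate 3 the least, and their counting intervals, 0.529 to 1.41 and 0.0845 to 0.607 CPM, overlapped. Without NC replicate 2 the log2 fold change was 6.10, and without NC replicate 3 it was 5.29. In the mimic libraries 47.5% of the tested genes had a lower mean than TNS4. No such place is given for NC, because genes low in both groups were not tested. Its log2 fold change was the 6th highest among the 12217 genes, whose median was 0.000902.

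**Figure D1:**
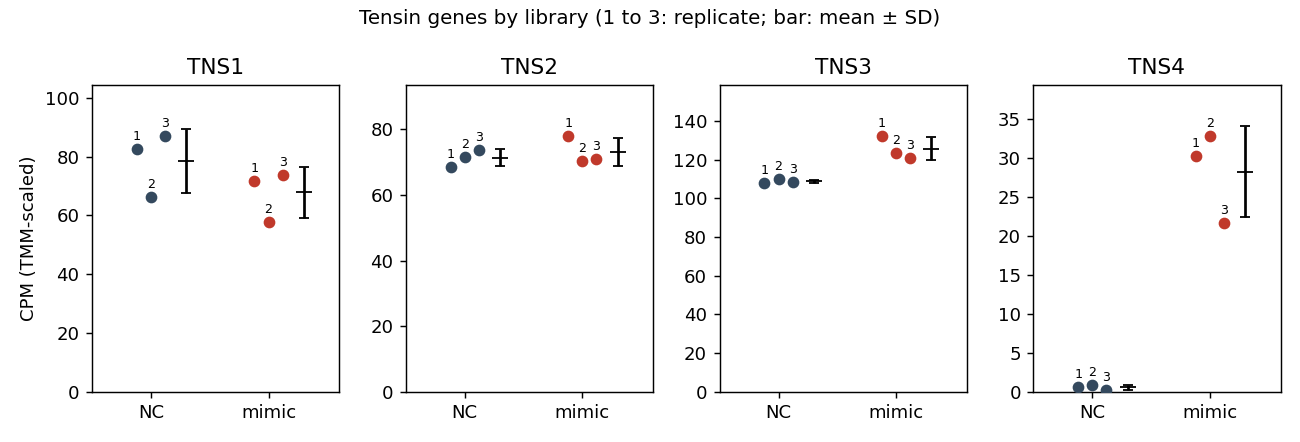
Level of each tensin gene in CPM (vertical axis, from 0, a different scale in each panel) in the 3 NC and the 3 mimic libraries, with replicate numbers above the points and bars for the mean ± SD. TNS4 lies under 1 CPM in NC and between 21.7 and 32.8 CPM with the mimic, TNS3 is higher in all 3 mimic libraries, and the groups overlap for TNS1 and TNS2.

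TNS3, a tensin known for a part in migration and in adhesion turnover, was slightly higher in the mimic libraries. It stood at 132, 124 and 121 CPM in mimic replicates 1 to 3 and at 108, 110 and 108 CPM in NC replicates 1 to 3. Every mimic library was above every NC library. The means were 126 ± 5.91 and 109 ± 0.901 CPM, a log2 fold change of 0.21 ± 0.07 (SE), or 15.4% more. The NC libraries differed by a coefficient of variation of 0.829%, less than the 2.15% that counting alone gives at this depth. Leaving out single libraries kept the log2 fold change between 0.17 and 0.23. Both TNS3 and TNS4 were thus above NC in every mimic library. In human mammary cells the 2 genes move in opposite directions under epidermal growth factor, and any part of that factor here was not tested. Among all tested genes, 11.4% had every mimic library above every NC library in CPM and 10.4% had every one below, and among the 4 tensins the first held for 2, TNS3 and TNS4. Since the family was chosen on this contrast, nothing is read from that share.

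TNS1, the founding tensin, which binds and caps actin filaments, was lower on average in the mimic libraries, with overlap. Its levels were 71.8, 57.9 and 73.9 CPM in mimic replicates 1 to 3 and 82.5, 66.3 and 87 CPM in NC replicates 1 to 3. Replicate 2 was the lowest library of its group on both sides, and NC replicate 2 lay below mimic replicates 1 and 3. The means were 67.8 ± 8.7 and 78.6 ± 10.9 CPM, a log2 fold change of −0.21 ± 0.10 (SE). The coefficient of variation was 12.8% in the mimic group and 13.9% in NC, well above the 2.68% and 2.53% expected from counting. The log2 fold change was −0.11 without mimic replicate 2 and −0.33 without NC replicate 2.

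TNS2, the tensin known in muscle for acting on insulin receptor substrate 1, showed the smallest difference of the family. It stood at 78, 70.3 and 70.9 CPM in mimic replicates 1 to 3 and at 68.6, 71.6 and 73.8 CPM in NC replicates 1 to 3. The groups overlapped, with mimic replicate 1 the highest library and NC replicate 1 the lowest. The means were 73.1 ± 4.27 and 71.3 ± 2.57 CPM, a log2 fold change of 0.04 ± 0.08 (SE), which became −0.015 without mimic replicate 1. In absolute size the log2 fold change of TNS2 was larger than that of 19.2% of the tested genes, against 78.2% for TNS1, 77.4% for TNS3 and 99.95% for TNS4.

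**Figure D2:**
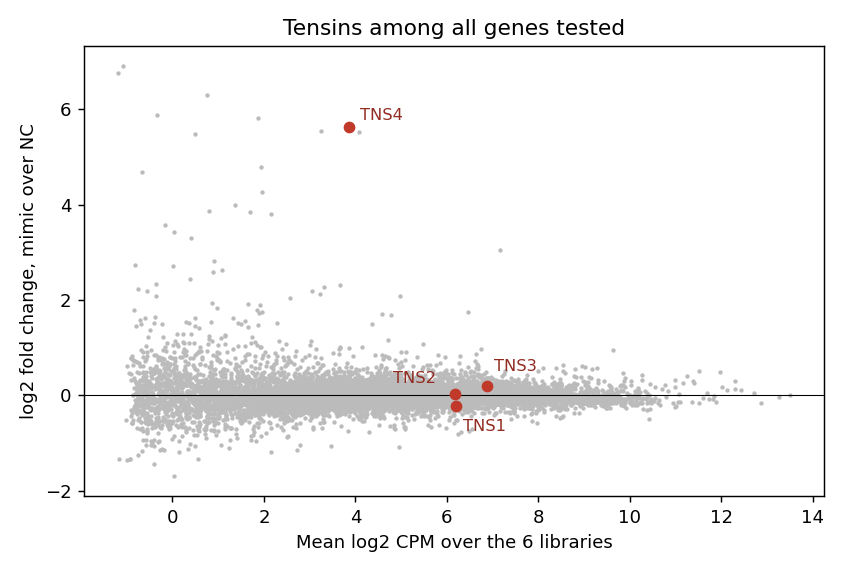
The log2 fold change of mimic over NC (vertical axis) against the mean log2 CPM over the 6 libraries (horizontal axis) for the 12217 tested genes in grey and the 4 tensins in red. TNS4 stands at 5.62, far from the bulk of the genes, and TNS1, TNS2 and TNS3 lie between −0.21 and 0.21 within it.

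Counted together, the 4 genes had 312, 285 and 287 CPM in mimic replicates 1 to 3 and 260, 249 and 269 CPM in NC replicates 1 to 3, so the family total did not overlap between the groups. The mean difference of the total was 35.5 CPM. The sum of TNS1, TNS2 and TNS3 was 282, 252 and 266 CPM against 259, 248 and 269 CPM, which overlapped, and its mean difference was 7.77 CPM. Most of the added tensin reads were thus reads of TNS4. Longer transcripts give more reads, and transcript lengths were not used here, so levels are not compared between different tensin genes, and shares are compared only between libraries.

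TNS4 took 9.7%, 11.5% and 7.54% of the tensin reads in mimic replicates 1 to 3, with exact 95% intervals of 8.99 to 10.4%, 10.7 to 12.4% and 6.88 to 8.25%. In NC replicates 1 to 3 its share was 0.209%, 0.359% and 0.0965%, with upper bounds of 0.373%, 0.567% and 0.225%. The mean shares were 9.6% ± 2 and 0.221% ± 0.132 (SD, n = 3 each), a gap of 9.37 percentage points. The share of TNS3 was 42.6% ± 0.724 against 42% ± 2, and that of TNS1 was 23% ± 2.69 against 30.2% ± 3.1 in NC. TNS2 took 25%, 24.7% and 24.7% with the mimic against 26.4%, 28.8% and 27.4% in NC, by replicate number, so every mimic library was below every NC library. The shares of a library add up to the whole and so are not independent. Ratios of reads within a library do not depend on the scaling between libraries. The ratio of TNS3 to TNS2 reads was 1.7, 1.76 and 1.7 in the mimic libraries and 1.58, 1.53 and 1.47 in NC, with no overlap. The ratio of TNS3 to TNS1 was 1.84, 2.14 and 1.64 against 1.31, 1.66 and 1.25, and there mimic replicate 3 fell just below NC replicate 2.

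**Figure D3:**
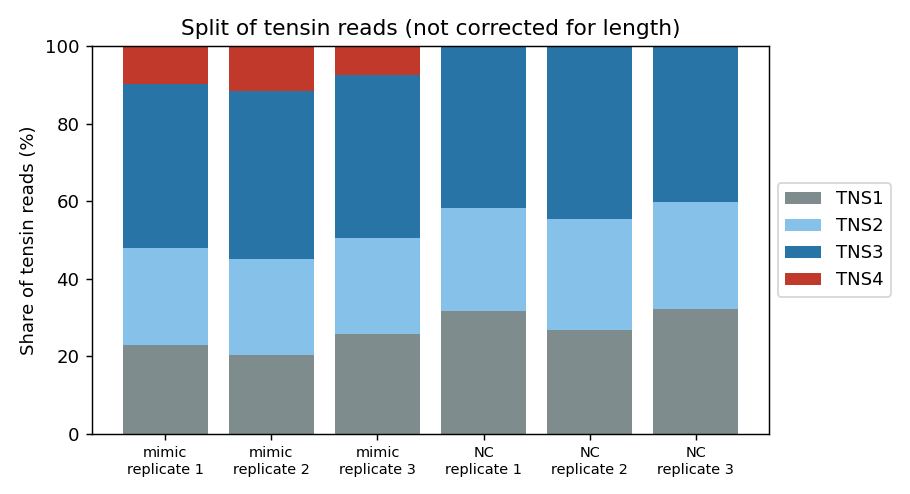
Split of the tensin reads of each library among the 4 genes, as stacked percentages not corrected for transcript length. The TNS4 segment takes 7.54% to 11.5% in the 3 mimic libraries and stays under 0.36% in the 3 NC libraries.

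The deposited table annotates all 4 tensins with the term focal adhesion, the only term that they share. It was looked at after the values were seen. Among the 173 other tested genes with that term, 19 rose and 3 fell, or 12.7%. Of all tested genes 6.45% were called. The median log2 fold change of the 173 focal adhesion genes was 0.04. TNS1 and TNS4 also carry the term actin binding, for which 19 of 156 other tested genes rose and 6 fell. For TNS4, that term stands beside the absence of the amino-terminal actin-binding region known for the protein.

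Each bovine tensin gene has a gene of the insulin-like growth factor binding proteins (IGFBP) among the 3 nearest protein-coding genes on one side, by the gene order of the RefSeq assembly ARS-UCD2.0. These secreted proteins bind and transport insulin-like growth factors. IGFBP5 and IGFBP2 stand beside TNS1, IGFBP6 beside TNS2, IGFBP3 and IGFBP1 beside TNS3, and IGFBP4 beside TNS4. IGFBP2 fell from 1599 ± 87 to 1139 ± 121 CPM (edgeR adjusted p of 0.000141), and IGFBP5 fell from 112 ± 8.95 to 93.4 ± 3.71 CPM (edgeR adjusted p of 0.0332). The edgeR adjusted p of IGFBP5 was 0.078 without mimic replicate 1, 0.163 without mimic replicate 2, 0.217 without NC replicate 1 and 0.141 without NC replicate 3. IGFBP4, next to TNS4, stood at 1220 ± 74.7 against 1092 ± 47 CPM, with an edgeR adjusted p of 0.197. IGFBP6 stood at 323 ± 27.5 against 299 ± 21.6 CPM, with an edgeR adjusted p of 0.491. IGFBP3 had 10 and 8 reads over the groups and IGFBP1 had none.

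The other neighbours of TNS4 had log2 fold changes of 0.28 or less, or too few reads to test. TOP2A, the topoisomerase of dividing cells, rose by 0.28 ± 0.08 on the log2 scale with an edgeR adjusted p of 0.0391. That value was 0.319 when mimic replicate 2 was left out, 0.353 without NC replicate 1 and 0.0502 without NC replicate 3. SMARCE1, a chromatin remodelling subunit, stood at −0.05 ± 0.07 (edgeR adjusted p of 0.76). The chemokine receptor gene CCR7 had summed reads of 8 in the mimic group and 14 in NC, and GJD3 and KRT222 had none. On one side of TNS2 lie EIF4B and the paired keratin genes KRT18 and KRT8. KRT18 rose from 541 ± 11.3 CPM in NC to 1048 ± 74.2 in the mimic group (edgeR adjusted p of 6.75e-10), and KRT8 rose 1.23-fold with an edgeR adjusted p of 0.00703, and 0.0788 without NC replicate 1, while TNS2 overlapped between the groups. EIF4B, a translation initiation factor, stood at −0.11 ± 0.07. Within the spans of the tensin genes RefSeq also places RUFY4 in TNS1, with no read here, and a few uncharacterised or small RNA loci that are not rows of the table. How the counting treated strand is not stated, so reads of loci that overlap a tensin could not be told apart from its own.

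The tails of several integrin beta chains are docking sites for the PTB domain. Docking on the chains named here was not tested. The list of integrin chains holds alpha chains as well, so its calls are no count of docking sites. This list and those below were chosen with earlier results of these data known, so their called shares are only a description. ITGB4 and ITGB6 were the only beta chains that passed. Of 13 tested integrin chains, 9 did not pass, 4 rose and none fell, which is 30.8% called against 6.45% of all genes, and the median log2 fold change was 0.12. ITGB4, the beta chain of the hemidesmosome laminin receptor, stood at 47.7, 42.5 and 34 CPM in mimic replicates 1 to 3 and at 12.2, 14.5 and 11.9 CPM in NC. It rose by 1.69 ± 0.12 on the log2 scale with an edgeR adjusted p of 4.27e-10, and, as for TNS4, mimic replicate 3 was the lowest of its group. The collagen receptor chain ITGA2 rose by 1.02 ± 0.11 (edgeR adjusted p of 1.01e-06), and the laminin receptor chain ITGA3 by 0.60 ± 0.07 (edgeR adjusted p of 8.02e-06). ITGB6, a beta chain found on epithelia, had 62 reads against 2, a ratio of 30 whose exact 95% interval ran from 7.97 to 254, and both NC reads were in replicate 3. It passed the filter on low counts through the mimic group alone. With the filter of CPM of at least 1 in 3 libraries ITGB6 was not tested, and 3 integrin chains were called. ITGB1, the common beta chain and the best-known partner of tensins in fibrillar adhesions, stood at 1413, 1494 and 1501 CPM against 1504, 1541 and 1537 CPM. Its log2 fold change of −0.06 ± 0.06 had an edgeR adjusted p of 0.72. ITGA5, its partner in the fibronectin receptor, stood at −0.07 ± 0.07 (edgeR adjusted p of 0.63).

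On a list of genes other than integrins whose products have been tied to tensins directly, MET alone passed the test. Of 19 tested genes on that list, 18 did not pass, 1 rose and none fell. This share of 5.26% lies near the 6.45% of all genes and is no result about the list. The median log2 fold change was 0.12. MET encodes the hepatocyte growth factor receptor, a protein whose level TNS4 is known to support in human cancer cells. Protein was not measured here. MET RNA stood at 379, 413 and 384 CPM in mimic replicates 1 to 3 and at 326, 332 and 329 CPM in NC. It rose 1.19-fold with an edgeR adjusted p of 0.0203, and that value was 0.151 when mimic replicate 2 was left out, 0.147 without NC replicate 1 and 0.0589 without NC replicate 3. DLC1, a GTPase-activating protein for RhoA that binds tensins, stood at 118, 132 and 122 CPM against 108, 113 and 108 CPM, with a log2 fold change of 0.18 ± 0.07 and an edgeR adjusted p of 0.14. Its relative STARD13 stood at 0.26 ± 0.10 (edgeR adjusted p of 0.14), or 0.0264 when mimic replicate 3 was left out, and STARD8 at 0.22 ± 0.23 (edgeR adjusted p of 0.68). The ubiquitin ligase gene CBL stood at 0.07 ± 0.09, the pseudokinase gene PEAK1 at 0.05 ± 0.08 and the adhesion scaffold BCAR1 at 0.10 ± 0.08, with edgeR adjusted p of 0.75, 0.81 and 0.60. CTNNB1, the gene of beta-catenin, had means of 411 ± 13 and 411 ± 2.17 CPM, and PTK2, the focal adhesion kinase, had 182 ± 6.02 and 182 ± 3.52 CPM.

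**Figure D4:**
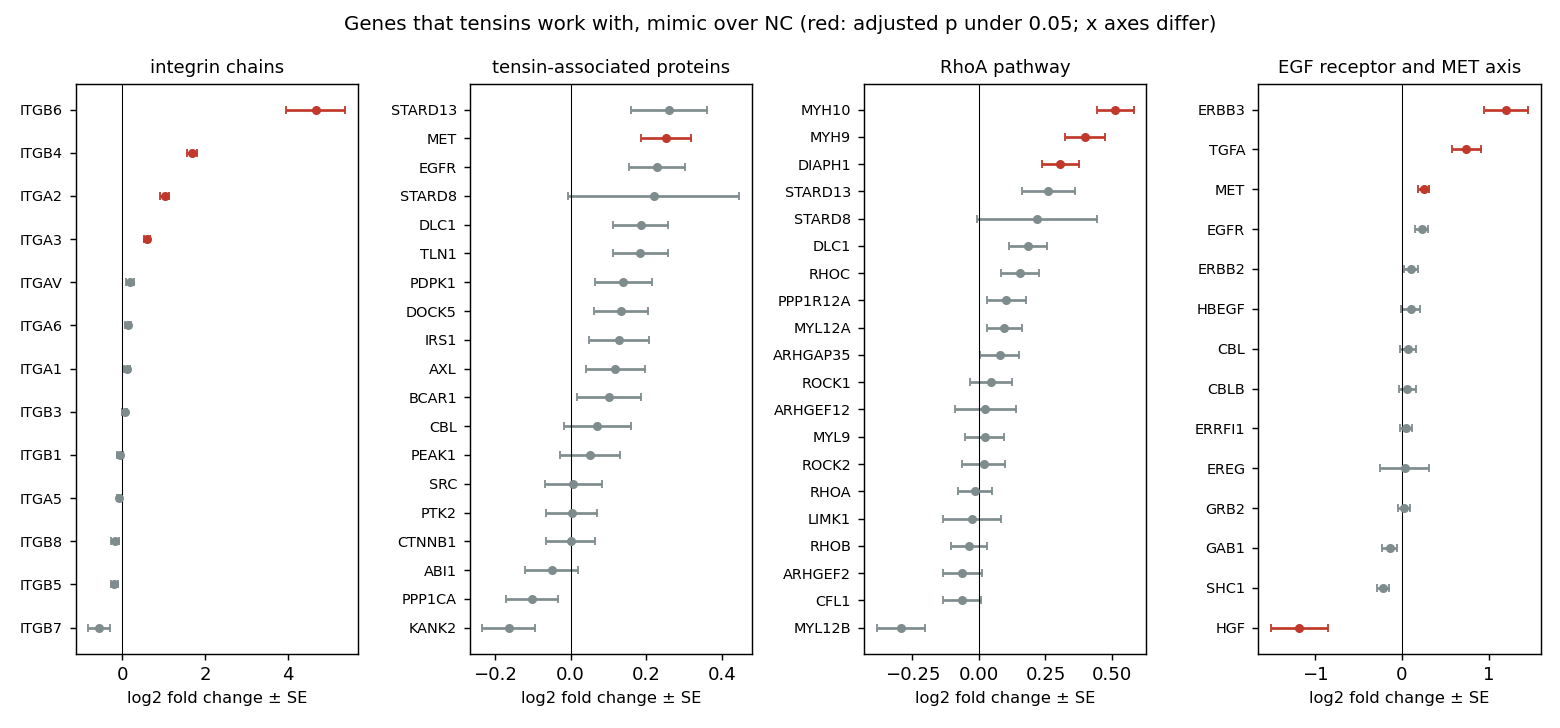
The log2 fold change of mimic over NC with its SE (horizontal axes, with different ranges) for the tested members of 4 gene lists, with genes at an adjusted p under 0.05 in red. Integrin chains hold the largest rises, ITGB6, with 62 reads against 2, and ITGB4. Of 19 tensin-associated genes 1, MET, passes, and this 5.26% lies near the 6.45% of all genes.

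Several genes of other adhesion proteins rose. Of 34 tested focal and fibrillar adhesion genes, 25 did not pass, 9 rose and none fell, which is 26.5% called against 6.45% of all genes, and the list median log2 fold change was 0.15. Like the other lists, this list was chosen with earlier results known, so its share is only a description. TLN2, a talin that activates integrins, stood at 31.4, 28.9 and 30.8 CPM in mimic replicates 1 to 3 and at 20.3, 20.9 and 20.4 CPM in NC, and rose with an edgeR adjusted p of 0.00017. FN1, which encodes fibronectin, the matrix protein along which fibrillar adhesions form, rose 1.4-fold with an edgeR adjusted p of 0.000322. SVIL, the gene of supervillin, rose by 0.59 ± 0.12 on the log2 scale, FERMT1, the epithelial kindlin, by 0.47 ± 0.09, VCL, which encodes vinculin, by 0.32 ± 0.06 and VASP, an actin filament elongation factor, by 0.34 ± 0.08. The edgeR adjusted p of these were 0.00194, 0.0022, 0.00273 and 0.00587, and that of VASP became 0.0585 without NC replicate 1. The list had 5 called members without NC replicate 1 and 14 without mimic replicate 3.

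The tensin partner DLC1 acts on RhoA, the GTPase that drives actomyosin contraction. Of 20 tested genes of that pathway, 17 did not pass, 3 rose and none fell, which is 15% called against 6.45% of all genes, with a median log2 fold change of 0.06. The non-muscle myosin heavy chains MYH10 and MYH9 rose by 0.51 ± 0.07 and 0.40 ± 0.07 on the log2 scale, with edgeR adjusted p of 2.07e-05 and 0.00126. DIAPH1, a formin activated by RhoA, rose by 0.31 ± 0.07 (edgeR adjusted p of 0.0066), or an edgeR adjusted p of 0.103 without NC replicate 1. The list had 2 called members without NC replicate 1 and 5 without mimic replicate 3.

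The EGF receptor axis is the one known to exchange TNS3 for TNS4 in mammary cells. Of 14 tested genes of the EGF receptor and MET list 3 rose, 1 fell and 10 did not pass, which is 28.6% called against 6.45% of all genes, with a median log2 fold change of 0.07. EGFR, the receptor itself, stood at 93.3, 87.6 and 89.8 CPM in mimic replicates 1 to 3 and at 77.1, 73.1 and 80.9 CPM in NC, with an edgeR adjusted p of 0.0668. TGFA, a ligand of the receptor, rose from 3.97 ± 0.729 CPM in NC to 6.67 ± 0.542 in the mimic group (edgeR adjusted p of 0.00545). ERBB3, a neuregulin receptor of the same family, rose from 1.2 ± 0.356 CPM in NC to 2.78 ± 0.386 in the mimic group (edgeR adjusted p of 0.00341). The MET ligand gene HGF fell from 1.41 ± 0.239 CPM in NC to 0.618 ± 0.208 in the mimic group (edgeR adjusted p of 0.0306), and it passed the filter on low counts through the NC group alone. The ligand genes EGF, AREG and BTC had no read. Leaving out mimic replicate 2, NC replicate 1 or NC replicate 3 left 2 called genes in the list. HGF lost its call when mimic replicate 1 or 2 or NC replicate 1 or 3 was left out, at an edgeR adjusted p of up to 0.138, and DESeq2 gave an adjusted p of 0.0715.

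Literature targets of miR-200b, listed for comparison, moved in both directions. Of 28 tested, 20 did not pass, 6 fell and 2 rose, which is 28.6% called. Over all genes 6.45% were called, 2.15% lower and 4.3% higher. The median log2 fold change of the list was −0.04. The smallest p of the list belonged to a gene that rose, FN1, at 0.48 ± 0.08 (edgeR adjusted p of 0.000322). The falls included ZEB1 at −0.46 ± 0.09, the collagen hydroxylation factor CRTAP at −0.36 ± 0.07 and the vesicle coat gene SEC23A at −0.35 ± 0.07. Their edgeR adjusted p were 0.0025, 0.00101 and 0.0030. ZEB2 stood at −0.44 ± 0.16 (edgeR adjusted p of 0.12). The list had 5 called genes without NC replicate 1 and 4 without NC replicate 3. The E-cadherin gene CDH1, repressed by ZEB1, rose by 1.70 ± 0.10 (edgeR adjusted p of 1.75e-11), and VIM, the gene of vimentin, stood at −0.14 ± 0.07 (edgeR adjusted p of 0.29). Sites for miR-200b in the tensin transcripts were not analysed here.

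The genes with the library profile most like that of TNS4 were looked for among 11607 tested genes with ordinary symbols. Likeness was the root mean square difference over the 6 libraries in log2 CPM, each gene centred on its own mean and with a prior count of 2. Of the 5 nearest genes, 3 are described. They were chosen for this likeness and carry no test. MPZL2, an adhesion protein of the immunoglobulin family, was nearest at 0.494, with 3.03, 3.66 and 2.61 CPM in mimic replicates 1 to 3 and 2 reads over NC, both in replicate 2. CRB3, an apical polarity protein, was at 0.707, with 20.1, 16.5 and 18.4 CPM against 0.296, 0.297 and 0.572 CPM. The ephrin receptor gene EPHA1 was at 0.907, with 7.85, 6.44 and 7.08 CPM against 0.246, 0.149 and 0.364 CPM. All 3 were near 0 in NC and present in every mimic library. TNS4 and MPZL2 had their lowest mimic value in replicate 3, while CRB3 and EPHA1 had theirs in replicate 2. Reads of CRB3 could not be told apart from those of DENND1C, which overlaps it.

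**Figure D5:**
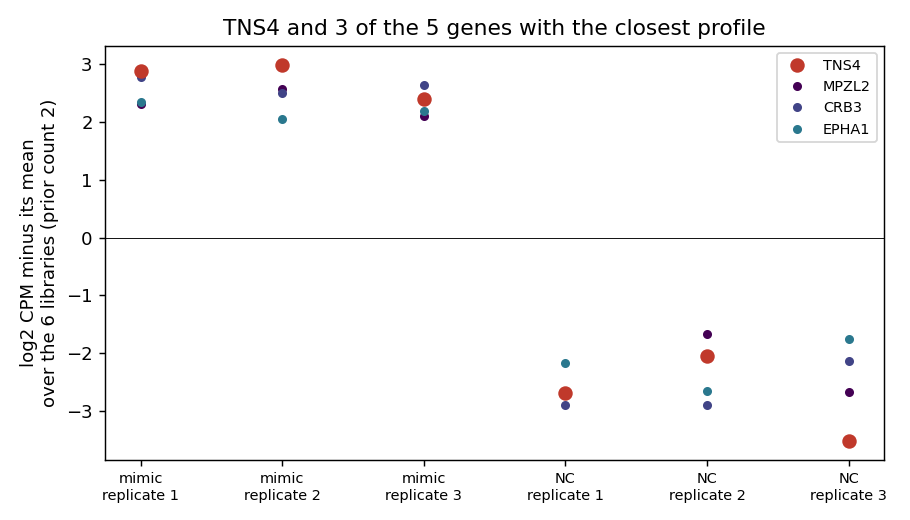
Level of TNS4 and of 3 of the 5 genes with the closest profile in each library (horizontal axis), as log2 CPM with a prior count of 2 minus the gene's mean over the 6 libraries (vertical axis). All 4 genes lie above 2 in the mimic libraries and at −1.67 or below in the NC libraries, and TNS4 has its lowest value, −3.52, in NC replicate 3.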

How the data were processed

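RNA of 6 BEND libraries, 3 per group by sample title, was prepared with Illumina's stranded TruSeq mRNA kit, per the labels' protocols. The authors deposited raw counts of every gene in every library as 1 file. The submitters' processing notes name Trimmomatic, HISAT2 and HTSeq and give no version or role. Genome build, annotation and strand setting are not stated in the sources used here. No coordinates are printed, and RefSeq (ARS-UCD2.0, holding the GeneIDs of 97.8% of genes) served for names and gene order. Symbols stored as dates, 26 in all, were restored through GeneID.

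From the counts, genes were kept by filterByExpr (minimum count 10, minimum total 15), scaled by TMM (factors 0.983 to 1.01) and tested with the quasi-likelihood F test of edgeR 4.0.16 under R 4.3.3, robust, group as the single factor, two-sided, Benjamini-Hochberg over 12217 genes at 0.05. The script was tested on simulated data. SE is the log2 fold change over the square root of F. The common dispersion of 0.00516 is a biological coefficient of variation of 7.18%. Intervals cover counting error only.

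The members and gene lists were chosen with earlier results of these data known. Named are the tensins, up to 6 called members per list by smallest p (markers of cell types mostly as counts), a set of tensin partners and controls, and the 5 genes closest in profile. Some genes that these rules name are not reported here. Neighbours were named by position, and the focal adhesion term, the ligands without reads and the genes at 0 after their values were seen. Some lists share genes. Alternatives were RLE and upper quartile scaling, other filters, DESeq2 1.42.0, the replicate block and leaving out each library. A planned share of TNS4 per coding length was not computed, because lengths were not used here.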

Additional observations from a re-analysis of the deposited data

How the results depend on the processing

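With the replicate number as a block (replicate block), edgeR called 816 higher and 496 lower genes, against 525 and 263 without it. No label says what a replicate number pairs, so the numbers were not taken as pairs. Deviations of same-numbered libraries had correlations of −0.0515, 0.128 and 0.189, and those of differently numbered ones ran from −0.287 to 0.166. With 3 libraries per group these values cannot settle whether the numbers mark pairs. Leaving out single libraries moved the counts to between 275 and 731 higher and 82 and 414 lower genes. Over those fits the log2 fold change ran from −0.33 to −0.11 for TNS1, −0.015 to 0.063 for TNS2, 0.17 to 0.23 for TNS3 and 5.29 to 6.10 for TNS4, and the gap in the TNS4 share of tensin reads from 8.4 to 10.4 percentage points. Under other scalings, filters, DESeq2 and the block, TNS4 stayed between 5.61 and 5.63 and no tensin changed sign. EGFR passed with the block, at an edgeR adjusted p of 0.0257.

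Of 59 named genes that are no tensins, 40 were called, while 6.45% of all tested genes were. Many were named because they passed, so this share is no result about them. Among the 40 are MPZL2, CRB3 and EPHA1, which were chosen for likeness to TNS4. EPCAM, KRT7 and ITGB6, which passed the filter through the mimic group alone, are also among them. Of the 40, 25 kept their call under every alternative in which they were tested, and no called gene changed sign. Genes near 0 did change sign. CTNNB1 had a log2 fold change of −0.0045 with RLE scaling and with DESeq2, −0.0099 with upper quartile scaling, −0.0043 without a filter, −0.0030 with CPM of at least 1 in 3 libraries and −0.00043 with the block. PTK2 had −0.0015 with RLE scaling and DESeq2, −0.0070 with upper quartile scaling, −0.0013 without a filter and −3.7e-06 with the CPM filter. Without single libraries the ranges were −0.026 to 0.0201 for CTNNB1, −0.025 to 0.021 for PTK2, −0.096 to 0.0069 for SPRYD3, −0.0032 to 0.17 for CBL and −0.022 to 0.15 for PEAK1. The cause was not tested. At 34 NC reads, counting error limits the NC level of TNS4.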
